A study of Homo sapiens with 9 samples.

Results

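DNA replication and the G1/S transition were followed through 42 genes in C28/I2, a human chondrocyte cell line that was immortalised. The genes were chosen by name, as replication and S phase factors, and not by a threshold on the values. Earlier results of these data were known when they were chosen. Each was found by its Ensembl gene ID among the 60671 genes of the deposited tables. RNA was sequenced from 9 libraries in 3 groups of 3. The first group, CA2 shRNA, was transduced with a short hairpin RNA against CA2, the gene of carbonic anhydrase 2, a cytosolic enzyme that interconverts carbon dioxide and bicarbonate. The other groups were labelled Scrambled and Control. The labels describe neither the Scrambled construct nor whether the Control cells were transduced, and they give no dose, time after transduction or passage. One cell line stands behind all 3 groups. Nothing in the labels says that the libraries came from separate cultures, so p-values measure the spread between these libraries, which may be technical.

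Before S phase, origins of replication are licensed when the origin recognition complex, CDC6 and CDT1 load the MCM ring onto DNA. Cyclin E with CDK2 then helps to start S phase, CDC45 and the GINS complex turn the ring into the working CMG helicase, and polymerases held by the sliding clamp PCNA copy the strands. Many of these genes are transcribed together in late G1 by E2F transcription factors, while the protein level of CDT1 and others is lowered in S phase by a ubiquitin ligase that carries DTL and reads PCNA on DNA.

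The libraries held 16994368 to 34261244 counts, and all 42 genes passed the filter on low counts, as did 19812 genes in all. Levels are CPM, counts relative to the library total, scaled with TMM factors unless RPKM, the deposited CPM per kilobase of exon, is named. The targeted gene CA2 had 28, 15 and 30 counts in CA2 shRNA, 41, 53 and 61 in Scrambled, and 55, 41 and 66 in Control. CA2 fell by 0.77 (log2) against Scrambled (edgeR adjusted p = 0.0276) and by 0.86 against Control (adjusted p = 0.0159), at a level that left the first call lost in 5 of 18 alternative settings and the second in 3. Of 13 chondrocyte markers 8 passed the filter. SOX9, the chondrocyte transcription factor, lay between 81.7 and 105 CPM over the 9 libraries, while the cartilage collagen gene COL2A1 reached at most 2.23 CPM, the proteoglycan gene ACAN at most 1.17 CPM, and COL9A1 had 0 counts in every library. In both CA2 shRNA comparisons SOX9 was called up and the marker COMP down, and the other 6 tested markers were not called. Log2 changes were below 0 for 7 of the 8 against Scrambled and for 6 against Control. Control 3 and Scrambled 2 were lowest in the nuclear RNA NEAT1, at 159 and 233 CPM, against 266 to 680.0 CPM in the other 7 libraries. In NEAT1 Scrambled 2 was close to the next library, CA2 shRNA 2, at 266 CPM. Control 3 and Scrambled 2 also had the lowest share of mitochondrial counts, 4.06% and 4.08%, against 5.55% to 6.86% in the other 7 libraries. Counts over gene lists are given with and without those 2 libraries.

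Log2 changes of most of the replication genes in CA2 shRNA were small and above 0, and PCNA was much lower. Against Scrambled, 15 of the 42 genes rose, 2 fell and 25 did not pass an adjusted p of 0.05 with edgeR's quasi-likelihood test, where 8.02% of all tested genes rose and 8.88% fell. Against Control, 11 rose, 2 fell and 29 did not pass, where 6.41% of all genes rose and 8.26% fell. The rises thus made up 35.7% and 26.2% of the list, which was chosen with earlier results of these data known. Among the 8550 genes with a mean level at or above that of CCNE2, the lowest gene of the list, 15.3% rose and 12.9% fell against Scrambled, and 12% rose and 13% fell against Control. The list's median log2 change was 0.10 against Scrambled, beside -0.03 over all tested genes, and 0.08 against Control, beside -0.005 over all tested genes. Over the genes at or above the level of CCNE2 the median was 0.04 against Scrambled and 0.03 against Control. A log2 change of 0.10 lies close to the median SD between libraries of one group, which was 0.07 for these genes, so the counts rest on many small differences.

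Log2 changes were above 0 for 34 of the 42 genes against Scrambled, where 46.2% of all tested genes were above 0, and for 29 against Control, where 49.3% were. For Scrambled against Control they were above 0 for 8 genes and below 0 for 34, where 50.8% of all tested genes were above 0. A sign count as uneven as that against Scrambled thus also arose between the reference groups, where no gene was called. All 3 CA2 shRNA libraries lay above all 3 Scrambled libraries for 18 genes, where 15.2% of all genes did so, and below them for 3 genes, where 17.2% did. Against Control the libraries separated upward for 19 genes, beside 15.8% of all genes, and downward for 4, beside 17.2%. The per-library median of the 42 genes, each centred on its own mean over the 9 libraries, was 0.08, 0.10 and 0.03 (log2) in CA2 shRNA, -0.004, -0.04 and -0.08 in Scrambled, and -0.05, 0.007 and -0.02 in Control. The lowest CA2 shRNA library, CA2 shRNA 3, was close to the highest Control library, Control 2, and the CA2 shRNA libraries did not overlap with either other group.

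The comparisons with Scrambled and with Control share the 3 CA2 shRNA libraries, so their results are not independent. In both comparisons 10 genes rose, namely CDC6, MCM4, MCM7, GINS2, GINS3, POLD3, RFC2, FEN1, RPA2 and DTL, and PCNA and CCNE1 fell in both. In all, 5.49% of tested genes rose in both and 6.98% fell in both. CDT1, MCM2, GINS1, RFC3 and SLBP rose against Scrambled and did not pass against Control, and LIG1 rose against Control and did not pass against Scrambled. Between Scrambled and Control, 0 of the 42 genes passed with edgeR or with DESeq2, 0 had an unadjusted p under 0.05, and their log2 changes ran from -0.18 to 0.05. The Scrambled libraries lay above all Control libraries for 0 of the 42 genes, where 3.66% of all genes did so, and below them for 1, CDT1, where 3.14% did. Of all tested genes 0% passed in that comparison, although 550 had an unadjusted p under 0.05 and DESeq2 called 1. Without Control 3 and Scrambled 2, 15 of the 42 genes rose and 3 fell against Scrambled, where 12.1% of all genes rose and 9.43% fell. Against Control 13 rose and 2 fell, beside 8.77% and 7.32% of all genes, and in both 12 rose and 2 fell, beside 7.28% and 5.96%. Without those libraries the share of rises over all genes was thus higher as well, and against Scrambled the list's 15 rises stood beside 12.1% in place of 8.02%.

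**Figure D1:**
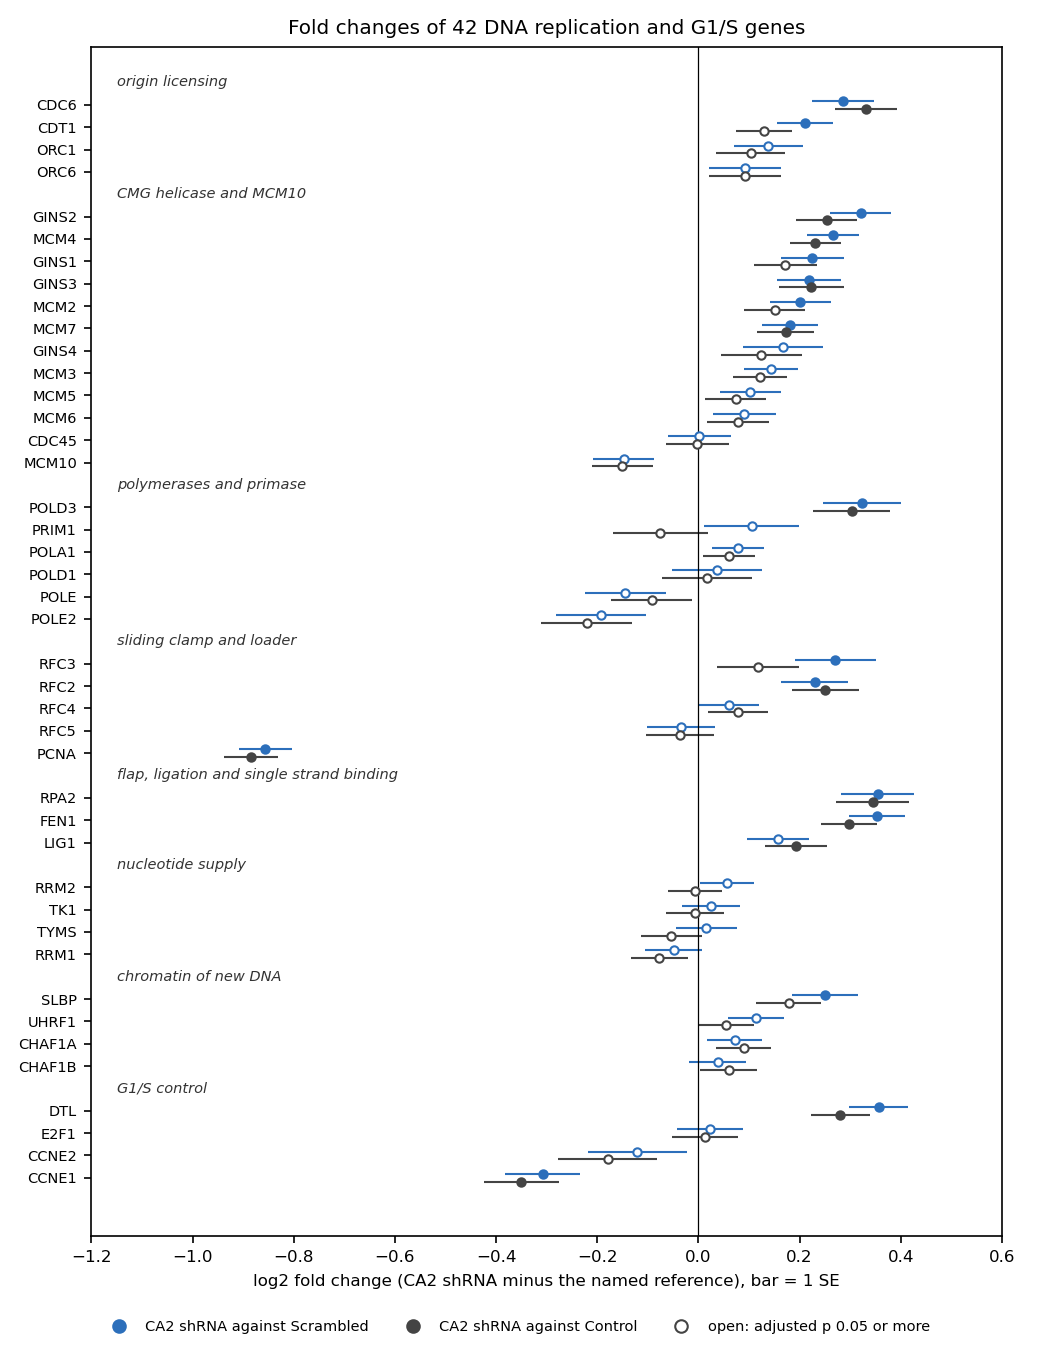
Log2 fold change of each of the 42 genes in CA2 shRNA against Scrambled (blue) and against Control (dark grey), grouped by role, with bars of 1 standard error and open points where the adjusted p was 0.05 or more. PCNA lies apart at -0.86 and -0.88, CCNE1 at -0.31 and -0.35, and the rises reach 0.36.

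PCNA (ENSG00000132646, chr20:5114953-5126626 on the minus strand, GRCh38) encodes the ring that tethers polymerases, the flap nuclease and the ligase to DNA. It had 189.7, 182 and 187 CPM in CA2 shRNA, 337, 339 and 336 in Scrambled, and 325, 349.7 and 357 in Control. The highest CA2 shRNA library was thus far below the lowest library of either other group, and the 3 CA2 shRNA libraries lay close together. The log2 change was -0.86 (SE 0.05, edgeR adjusted p = 5.49e-09) against Scrambled and -0.88 (SE 0.05, adjusted p = 3.23e-09) against Control, which left 55.2% of the Scrambled level and 54.2% of the Control level. Both calls held in all 18 alternative settings. In RNA from a whole culture, a change in the share of cells in S phase and a change in RNA of a gene per cell cannot be told apart. This holds for PCNA and for every gene below, whether it rose or fell. PCNA was the most abundant of the 42 genes per kilobase, with 132 ± 5.13 RPKM in CA2 shRNA, 241 ± 1.56 RPKM in Scrambled and 244 ± 10.7 RPKM in Control (SD, n = 3 each).

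The clamp loader, replication factor C, opens the PCNA ring and closes it around DNA. Of its genes on the list RFC2 rose in both comparisons and RFC3 in 1, while RFC4 and RFC5 did not pass. RFC2 had 85.1, 97.0 and 84.0 CPM in CA2 shRNA, 78.8, 75.4 and 72.6 in Scrambled, and 71.0, 74.8 and 77.4 in Control. The CA2 shRNA libraries lay above all others, and CA2 shRNA 2 was the high library. The log2 change was 0.23 (SE 0.07, adjusted p = 0.0235) against Scrambled and 0.25 (SE 0.07, adjusted p = 0.0155) against Control, and without CA2 shRNA 2 neither passed. RFC3 averaged 35.6 ± 2.31 CPM in CA2 shRNA, 29.5 ± 2.85 CPM in Scrambled and 32.8 ± 1.25 CPM in Control, with a rise of 0.27 against Scrambled (adjusted p = 0.0277) that was lost in 6 of 18 settings. RFC4 and RFC5 had log2 changes from -0.04 to 0.08 in both comparisons. PCNA thus fell in both comparisons, while of the 4 loader genes 2 rose against Scrambled, 1 rose against Control and 0 fell in either. Of all tested genes 8.02% rose and 8.88% fell against Scrambled, and 6.41% rose and 8.26% fell against Control. With 4 genes, 0 falls lies near those shares.

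Of the 4 licensing genes CDC6 rose in both comparisons, CDT1 rose against Scrambled, and ORC1 and ORC6 did not pass. The rises were 50% of the group against Scrambled and 25% against Control, beside 8.02% and 6.41% of all tested genes. CDC6 (chr17:40287879-40304657), the ATPase that brings the MCM ring to the origin, had 80.2, 81.1 and 76.6 CPM in CA2 shRNA, 64.4, 67.6 and 63.0 in Scrambled, and 59.8, 66.1 and 63.1 in Control. Each CA2 shRNA library stood above each library of the other groups. The rise was 0.29 (SE 0.06, adjusted p = 0.00324) against Scrambled and 0.33 (SE 0.06, adjusted p = 0.00101) against Control, and both calls held in all 18 settings. CDT1, the other loading factor, averaged 261 ± 16.0 CPM in CA2 shRNA, 226 ± 8.96 CPM in Scrambled and 239 ± 1.89 CPM in Control. Its change was 0.21 against Scrambled (adjusted p = 0.014) and 0.13 against Control (adjusted p = 0.141), and the first was lost without Scrambled 3 or CA2 shRNA 2. ORC1 and ORC6, subunits of the origin recognition complex, had log2 changes from 0.09 to 0.14.

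The 11 subunit genes of the CMG helicase and MCM10, a helicase cofactor, formed the largest role group. They held 6 rises and 0 falls against Scrambled and 4 rises and 0 falls against Control. The rises were 50% and 33.3% of the group, beside 8.02% and 6.41% of all tested genes. By share FEN1, RPA2 and LIG1 stood higher, with 66.7% and 100% up. In the motor ring of MCM2 to MCM7, MCM4 and MCM7 passed in both comparisons and MCM2 in 1. MCM4 had 558, 575 and 546 CPM in CA2 shRNA, 469, 469.6 and 457 in Scrambled, and 458, 486 and 486 in Control. The CA2 shRNA libraries were clear of both other groups, and the log2 change was 0.27 (SE 0.05, adjusted p = 0.00125) against Scrambled and 0.23 (SE 0.05, adjusted p = 0.00409) against Control, in all 18 settings. MCM7 had 451, 489 and 442 CPM in CA2 shRNA, 427, 398 and 394 in Scrambled, and 395, 419.6 and 411 in Control. Its CA2 shRNA libraries lay above all others too, but the rise of 0.18 against Scrambled (adjusted p = 0.0336) was lost in 4 of 18 settings, and that of 0.17 against Control (adjusted p = 0.047) in 8, with an SE of 0.06 for both. MCM2 averaged 298 ± 22.7 CPM in CA2 shRNA, 259 ± 13.4 CPM in Scrambled and 268 ± 7.88 CPM in Control, with 0.20 against Scrambled (adjusted p = 0.0292) and 0.15 against Control (adjusted p = 0.116). MCM3, MCM5 and MCM6 had changes from 0.07 to 0.14 and did not pass in either comparison. Whether the subunits differ from one another in their change was not tested.

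The GINS complex joins the MCM ring and CDC45 in the active helicase. GINS2 had 85.5, 92.2 and 85.7 CPM in CA2 shRNA, 70.5, 71.2 and 69.0 in Scrambled, and 69.7, 77.6 and 73.5 in Control. No library of the other groups reached the CA2 shRNA libraries, and the rise was 0.32 (SE 0.06, adjusted p = 0.00115) against Scrambled and 0.25 (SE 0.06, adjusted p = 0.00746) against Control. The second call was lost without CA2 shRNA 2 (adjusted p = 0.0551). GINS3 had 49.1, 51.9 and 51.8 CPM in CA2 shRNA, 41.6, 45.9 and 43.7 in Scrambled, and 43.3, 43.9 and 43.6 in Control. The CA2 shRNA libraries lay above all libraries of the other groups, which overlapped each other, and GINS3 was higher by 0.22 in both comparisons (SE 0.06), with an adjusted p of 0.0248 and 0.0243, calls that were lost in 4 and 5 of 18 settings. GINS1 averaged 139 ± 3.01 CPM in CA2 shRNA, 119 ± 8.54 CPM in Scrambled and 123 ± 7.27 CPM in Control, and rose by 0.23 against Scrambled (adjusted p = 0.018), with 0.17 against Control (adjusted p = 0.0764). GINS4 had 0.17 and 0.12 and did not pass. CDC45, the partner of GINS, had a change of 0.002 against Scrambled and -0.002 against Control. MCM10 averaged 80.8 ± 5.53 CPM in CA2 shRNA, 89.4 ± 1.72 CPM in Scrambled and 89.6 ± 2.16 CPM in Control, with -0.15 in both comparisons (adjusted p = 0.108 and 0.112). All 3 CA2 shRNA libraries of MCM10 lay below the other libraries, and neither difference passed.

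Of the 6 genes of polymerase alpha with its primase, polymerase delta and polymerase epsilon, POLD3 passed. In each comparison that was 16.7% of the group up, beside 8.02% of all tested genes against Scrambled and 6.41% against Control. POLD3 (chr11:74493851-74669117), an accessory subunit of polymerase delta that binds PCNA, had 26.1, 25.4 and 24.4 CPM in CA2 shRNA, 19.1, 20.6 and 20.7 in Scrambled, and 20.8, 19.6 and 21.0 in Control. The CA2 shRNA libraries lay above all others. The rise was 0.32 (SE 0.08, adjusted p = 0.00668) against Scrambled, in all 18 settings, and 0.30 (SE 0.08, adjusted p = 0.0114) against Control, lost without Control 2 (adjusted p = 0.0874). The catalytic subunit genes did not pass. POLA1 had 0.08 and 0.06, POLD1 had 0.04 and 0.02, and POLE had -0.14 and -0.09 against Scrambled and Control in that order. The small epsilon subunit gene POLE2 averaged 17.2 ± 0.594 CPM in CA2 shRNA, 19.5 ± 2.03 CPM in Scrambled and 19.97 ± 0.749 CPM in Control, with -0.19 (adjusted p = 0.161) and -0.22 (adjusted p = 0.117). The primase gene PRIM1 had 0.11 against Scrambled and -0.08 against Control, a change of sign within its spread.

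FEN1, RPA2 and LIG1 act on single strands and on the joints of the lagging strand. FEN1 (chr11:61792911-61797238), the nuclease that trims the flaps of Okazaki fragments on PCNA, had 145, 153 and 139 CPM in CA2 shRNA, 115, 115 and 111 in Scrambled, and 114, 120.0 and 122 in Control. The CA2 shRNA libraries were clear of both other groups. The rise was 0.35 (SE 0.06, adjusted p = 0.000208) against Scrambled and 0.30 (SE 0.06, adjusted p = 0.00105) against Control. RPA2 (chr1:27891524-27914746 on the minus strand), the middle subunit of the single strand binding protein RPA, had 45.4, 47.2 and 42.8 CPM in CA2 shRNA, 36.3, 37.3 and 32.2 in Scrambled, and 35.4, 34.7 and 36.3 in Control. Its CA2 shRNA libraries lay above all others too, with 0.35 (SE 0.07, adjusted p = 0.00229) and 0.34 (SE 0.07, adjusted p = 0.003). The calls of FEN1 and RPA2 held in all 18 settings in both comparisons. LIG1, the ligase that seals the fragments on PCNA, averaged 87.5 ± 2.72 CPM in CA2 shRNA, 78.4 ± 5.16 CPM in Scrambled and 76.5 ± 2.15 CPM in Control. LIG1 rose by 0.19 against Control (adjusted p = 0.0431), lost in 9 of 18 settings, and had 0.16 against Scrambled (adjusted p = 0.0929). FEN1 and POLD3 thus rose in both comparisons, while PCNA, the ring they bind, fell in both. FEN1 and POLD3 are named because they were called. LIG1 passed against Control only, and the catalytic polymerase genes did not pass. Whether genes of PCNA-binding proteins changed as a set was not tested.

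No gene of nucleotide supply was called. Of all tested genes 16.9% were called in either direction against Scrambled and 14.7% against Control. With 4 genes, 0 calls lies near those shares. RRM1 and RRM2, the subunits of ribonucleotide reductase, TYMS, which makes thymidylate, and TK1, which salvages thymidine, had log2 changes from -0.05 to 0.06 against Scrambled and from -0.08 to -0.006 against Control. Of these 4 genes 0 passed with edgeR or with DESeq2, and 0 had an unadjusted p under 0.05. RRM2 averaged 338 ± 5.48 CPM in CA2 shRNA, 325 ± 14.1 CPM in Scrambled and 339 ± 13.7 CPM in Control. TK1 averaged 242 ± 15.0 CPM in CA2 shRNA, 238 ± 7.56 CPM in Scrambled and 243 ± 9.66 CPM in Control. In both genes the 3 groups overlapped. The standard errors of these 4 log2 changes were 0.05 to 0.06, about the same as those of FEN1 and MCM4.

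Among the 4 genes of chromatin assembly on new DNA 1 rose against Scrambled and 0 against Control. Of all tested genes 8.02% and 6.41% rose. With 4 genes, 1 rise and 0 rises lie near those shares. SLBP binds the stem-loop of histone mRNAs, which carry no poly(A) tail. It averaged 74.6 ± 1.36 CPM in CA2 shRNA, 62.7 ± 2.72 CPM in Scrambled and 65.9 ± 4.73 CPM in Control, with 0.25 against Scrambled (adjusted p = 0.0123), lost without Scrambled 3, and 0.18 against Control (adjusted p = 0.0783). CHAF1A and CHAF1B, subunits of the histone chaperone CAF-1, and UHRF1, which recruits the maintenance DNA methyltransferase, had changes from 0.04 to 0.11 and did not pass.

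The 4 genes of G1/S control went in different directions. In each comparison 25% of them rose and 25% fell. Of all tested genes 8.02% rose and 8.88% fell against Scrambled, and 6.41% rose and 8.26% fell against Control. DTL (chr1:212035553-212107400), the substrate receptor of the ligase that destroys CDT1 on PCNA, had 153, 145 and 151 CPM in CA2 shRNA, 111, 122 and 118 in Scrambled, and 116, 123 and 131 in Control. All CA2 shRNA libraries were higher than all others, and the rise was 0.36 (SE 0.06, adjusted p = 0.000318) against Scrambled and 0.28 (SE 0.06, adjusted p = 0.0027) against Control, in all 18 settings. CCNE1 (chr19:29811991-29824312), cyclin E1, had 29.3, 27.2 and 27.7 CPM in CA2 shRNA, 36.6, 32.4 and 35.3 in Scrambled, and 34.4, 37.8 and 35.3 in Control. The highest CA2 shRNA library was below the lowest of the other groups. CCNE1 fell by 0.31 (SE 0.07, adjusted p = 0.00743) against Scrambled and by 0.35 (SE 0.07, adjusted p = 0.00304) against Control, and the first call was lost without CA2 shRNA 3 (adjusted p = 0.0552). Its relative CCNE2, cyclin E2, had -0.12 and -0.18 and did not pass. E2F1, the activator of this program, averaged 151 ± 7.87 CPM in CA2 shRNA, 149 ± 14 CPM in Scrambled and 149.9 ± 3.15 CPM in Control, with changes of 0.02 and 0.01.

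**Figure D2:**
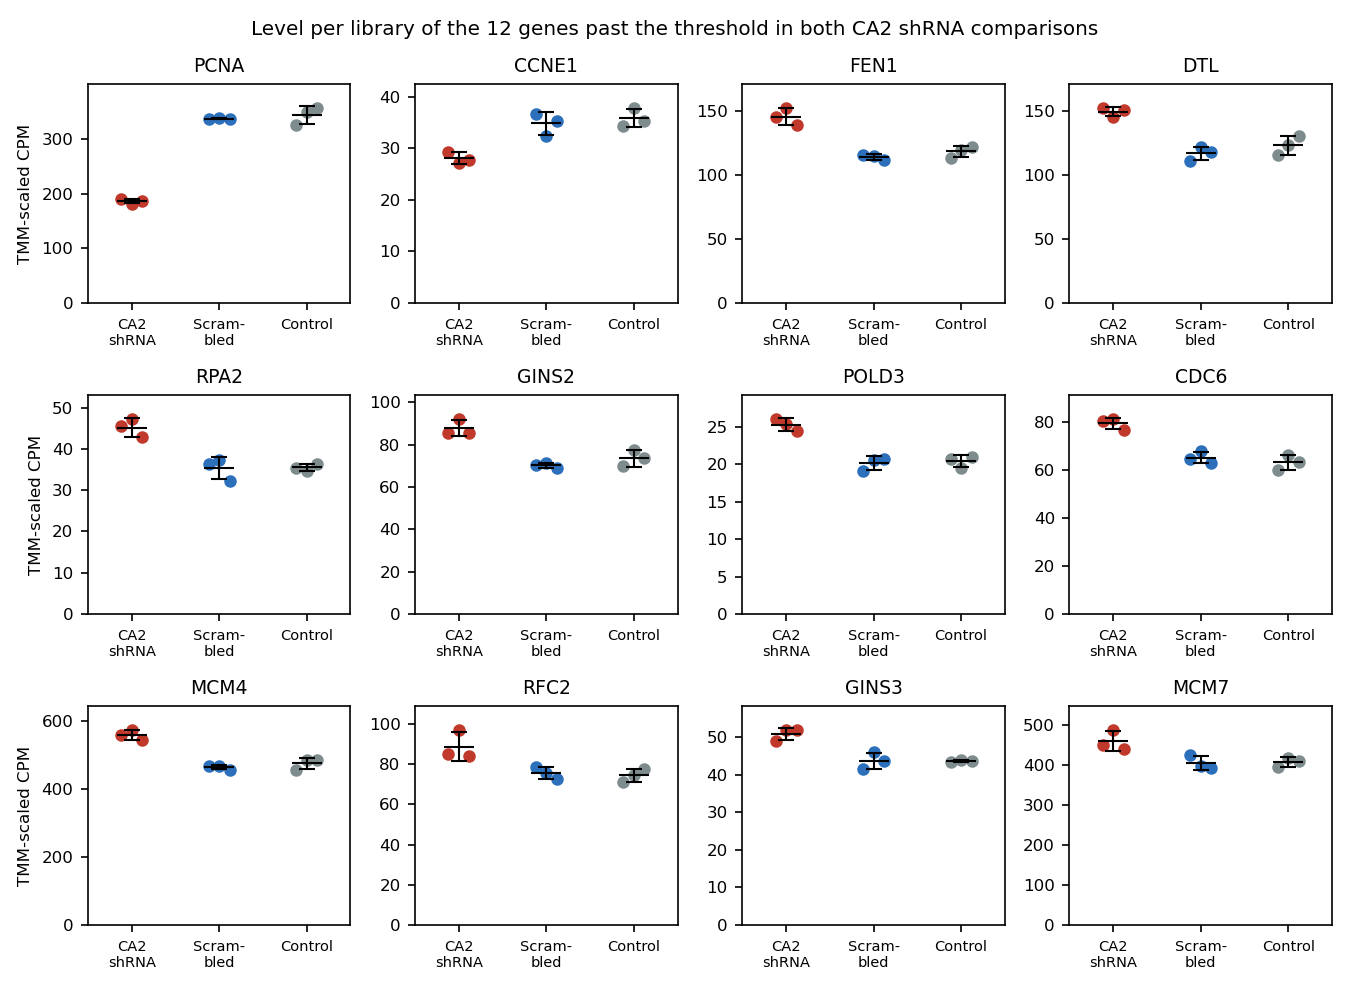
TMM-scaled CPM in each library (points) with the mean and SD of 3 libraries (bars) for the 12 genes past the threshold in both CA2 shRNA comparisons; every axis starts at 0. In each panel the CA2 shRNA points lie on one side of all Scrambled and Control points, by the widest margin in PCNA (182 to 189.7 against 325 to 357 CPM).

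Per kilobase, the list spanned a wide range of levels. RPKM divides by the deposited exon length of a gene, 1403 bases for PCNA, 4386 for MCM7 and 7268 for MCM5. That length may exceed the transcript in use, so the order of genes rests in part on it. By mean CPM the highest gene was MCM4, at 500.5 CPM. PCNA stood first at a mean of 206 RPKM over the 9 libraries, followed by TK1 at 130.4 RPKM, MCM7 at 96.7 RPKM and CDT1 at 87.5 RPKM, and CCNE2 was lowest at 3.76 RPKM. In CA2 shRNA alone PCNA, at 132 ± 5.13 RPKM, and TK1, at 131 ± 5.77 RPKM, differed by less than their spread. The 6 genes of the MCM ring, whose proteins stand in equal numbers in the complex, ran from 26.04 RPKM for MCM5 to 96.7 RPKM for MCM7. The GINS genes ran from 4.65 RPKM for GINS4 through 9.01 RPKM for GINS3 and 23.9 RPKM for GINS2 to 30.6 RPKM for GINS1. The 3 rises of 0.35 or more against Scrambled, FEN1, RPA2 and DTL, lay at 57.2, 19.5 and 26.4 RPKM, which placed them 9, 27 and 21 in order of level among the 42.

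**Figure D3:**
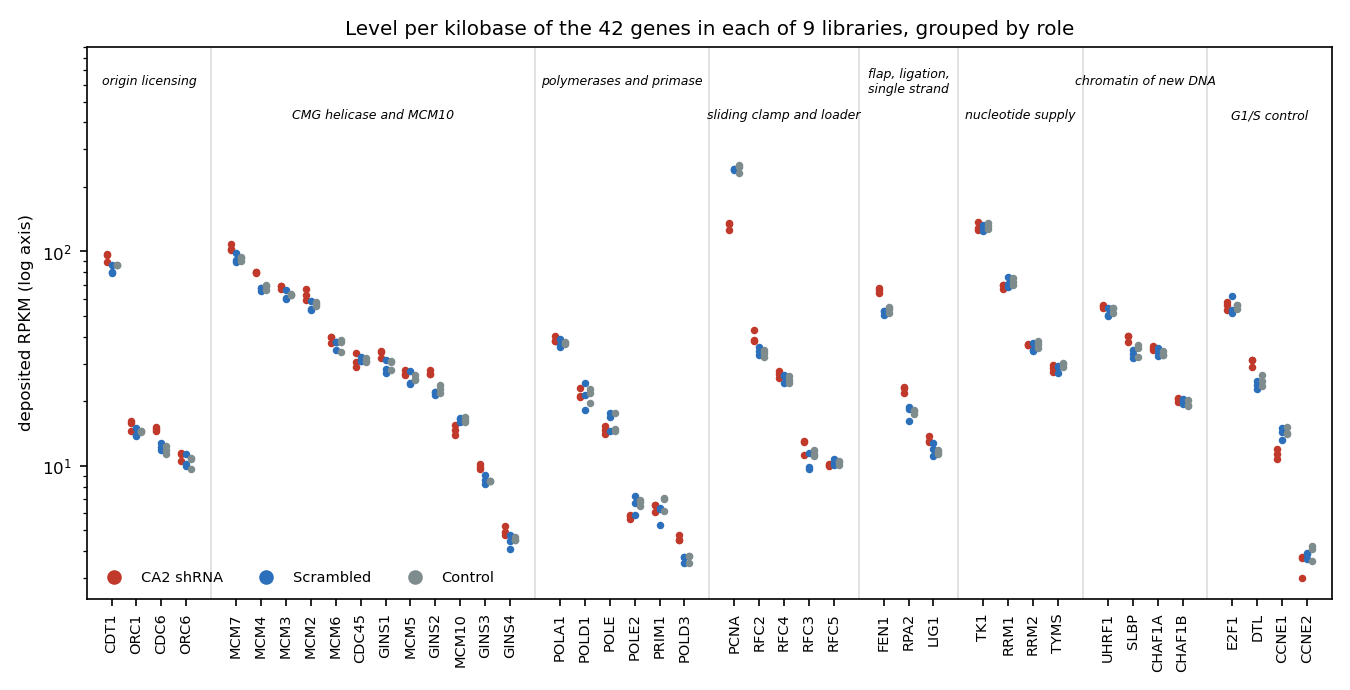
Deposited RPKM of each gene in each library on a log axis, ordered by level within each role, with CA2 shRNA in red, Scrambled in blue and Control in grey. PCNA at the top drops in CA2 shRNA to the level of TK1 near 131 RPKM, while the 4 nucleotide supply genes overlap between groups.

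Other genes of the same pathways, 70 in number and named in lists beside the 42, were counted in the same fit. Those lists too were chosen with earlier results of these data known. Against Scrambled 21 rose and 5 fell, with a median of 0.14, and against Control 17 rose and 6 fell, with a median of 0.11. These were 30% and 7.14% of the 70 genes against Scrambled, beside 8.02% and 8.88% of all tested genes, and 24.3% and 8.57% against Control, beside 6.41% and 8.26%. In both comparisons 16 rose and 5 fell, or 22.9% and 7.14%, beside 5.49% and 6.98% of all genes. Without Control 3 and Scrambled 2, 69 of the 70 passed the filter, of which 30 rose and 4 fell against Scrambled, 22 rose and 5 fell against Control, and 22 rose and 4 fell in both. The rises were 43.5%, 31.9% and 31.9% in that order, beside 12.1%, 8.77% and 7.28% of all genes without those libraries. The falls were 5.8%, 7.25% and 5.8%, beside 9.43%, 7.32% and 5.96%. Among 24 further G1/S regulators 7 rose in both, led by CDC25A, the phosphatase that activates CDK2, at 94.5 ± 6.89 CPM in CA2 shRNA, 59.6 ± 1.99 CPM in Scrambled and 60.6 ± 3.10 CPM in Control (0.66, adjusted p = 1.42e-06, and 0.64, adjusted p = 2.28e-06). The CDK inhibitor gene CDKN1A, whose protein p21 also binds PCNA, rose by 0.44 and 0.51. SKP2, which recognises the inhibitor p27 for destruction, rose by 0.45 and 0.41, and the repressor gene E2F7 rose by 0.31 and 0.36. The rises named here thus included genes that promote entry into S phase and genes that restrain it. They are a part of the 7 and do not give the balance of that list. The 3 falls of that list, chosen after their values were seen, were CDKN1B, the gene of p27, RBL2, a relative of the retinoblastoma gene, and TFDP2, a partner of E2F.

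Among 21 further fork and synthesis genes 6 rose and 1 fell in both comparisons. POLE3 and POLE4, the histone-fold subunits of polymerase epsilon, rose by 0.35 and 0.35 and by 0.33 and 0.37, and RPA1, the large subunit of RPA, by 0.31 and 0.29. POLD2, the subunit that joins POLD3 to polymerase delta, averaged 121 ± 3.25 CPM in CA2 shRNA, 159 ± 3.09 CPM in Scrambled and 162 ± 3.40 CPM in Control. It fell by 0.40 (adjusted p = 2.93e-05) and by 0.42 (adjusted p = 1.55e-05), so that neighbouring subunits of polymerase delta were called in opposite directions. Among 13 licensing and firing genes GMNN, the gene of the CDT1 inhibitor geminin, rose by 0.36 and 0.32, and TICRR, which helps to fire origins, fell by 0.45 and 0.36. Of 12 genes of replication-coupled chromatin and checkpoint, the histone chaperone gene ASF1B rose by 0.26 and 0.25 and the checkpoint kinase gene CHEK1 by 0.27 in both. Of the genes named here POLE4, GMNN, ASF1B, CHEK1, CDKN1B, RBL2 and TFDP2 lost a call in at least 1 of the 18 settings, most often CHEK1, in 6 and 7. In the 29 genes of G2 and mitosis 3 rose and 6 fell against Scrambled, with a median of -0.02, and 4 rose and 6 fell against Control, with a median of -0.04. The rises were 10.3% and 13.8% of that list, beside 8.02% and 6.41% of all genes and 15.3% and 12% of those at or above the level of CCNE2. The falls were 20.7% in each comparison, beside 8.88% and 8.26% of all genes and 12.9% and 13% at that level. Without Control 3 and Scrambled 2 there were 5 rises and 5 falls against Scrambled and 4 rises and 5 falls against Control, and both medians were 0.02. These rises were 17.2% and 13.8% of the list, beside 12.1% and 8.77% of all genes without those libraries. The falls were 17.2% in each comparison, beside 9.43% and 7.32%.

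**Figure D4:**
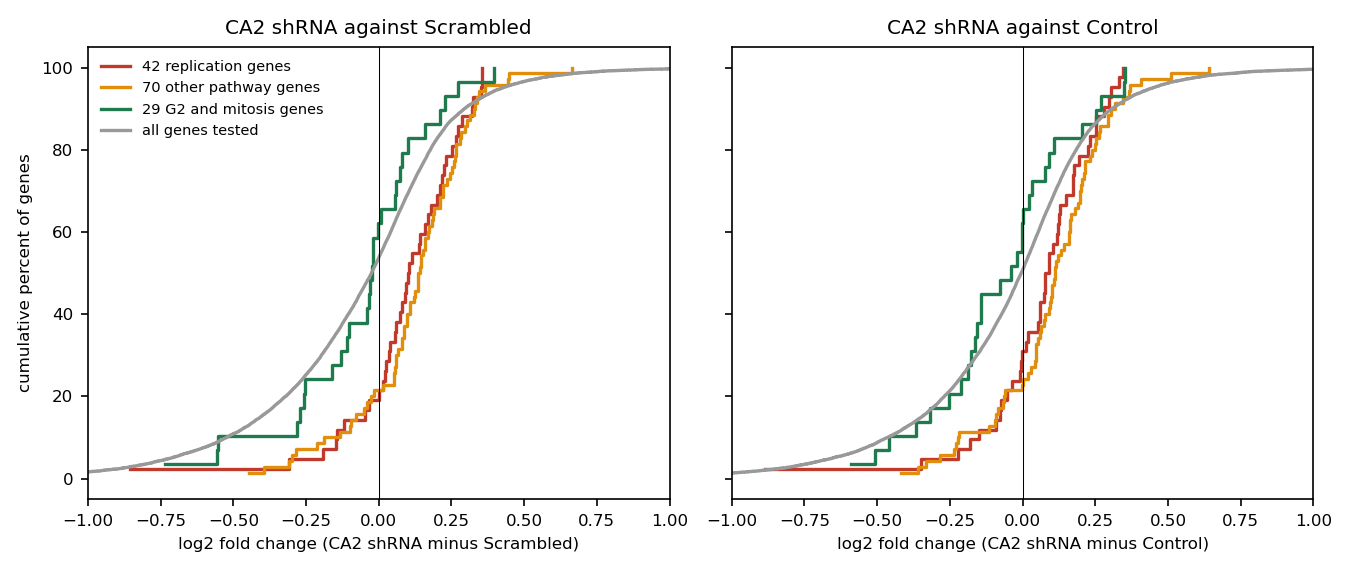
Cumulative percent of genes against log2 fold change for the 42 genes, 70 other pathway genes, 29 G2 and mitosis genes and all tested genes, in CA2 shRNA against Scrambled (left) and against Control (right); changes beyond 1 in size are off the axis. The replication curves lie right of the curve of all genes over most of their range (medians 0.10 and 0.08 beside -0.03 and -0.005), with PCNA as the point at the far left.

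The promoter windows of these genes were searched for the words bound by E2F, because E2F is the best known regulator of the list. RefSeq promoter sequences on GRCh38.p14, from 250 bases before to 50 bases after the start, were on hand for 36 of the 42 genes. The E2F words were TTTGGCGC, TTTCCCGC, TTTGCCGC and TTTCGCGC on either strand. At least 1 was found in 19 of the 36 windows (52.8%), against 5.15% of the 12515 windows of tested genes. The median GC content was 67.5% in the 36 windows and 65.3% in all. CCAAT, on either strand, was in 58.3% of the 36 windows and 36% of all, and TTTGAA, the core of the CHR element of mitotic genes, in 2.78% and 9.76%. In the 23 G2 and mitosis genes with a window the E2F words were in 4.35%, CCAAT in 73.9% and TTTGAA in 60.9%. E2F words overlapped each other in MCM2 and MCM6 and overlapped a CCAAT in MCM7. A match is a description of the letters and not a bound site. Windows of 30 bases are shown for PCNA and for genes that rose in both comparisons, to set the falling gene beside rising ones; they run 5′ to 3′ along the gene, with the E2F word in capitals. The windows lie at chr20:5126663-5126692 (minus strand) for PCNA, chr17:40287875-40287904 (plus) for CDC6, chr1:212035729-212035758 (plus) for DTL, chr16:85688967-85688996 (minus) for GINS2, chr16:58392455-58392484 (plus) for GINS3 and chr7:100101388-100101417 (minus) for MCM7.
PCNA: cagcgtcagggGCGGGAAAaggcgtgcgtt
CDC6: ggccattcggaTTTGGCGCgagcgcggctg
DTL: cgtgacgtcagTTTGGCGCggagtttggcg
GINS2: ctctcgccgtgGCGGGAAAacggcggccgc
GINS3: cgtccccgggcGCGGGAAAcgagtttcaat
MCM7: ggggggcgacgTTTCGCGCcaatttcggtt

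The words did not separate PCNA from the genes that rose. PCNA, GINS2 and GINS3 carry the same word, TTTCCCGC read on the opposite strand, starting 59, 31 and 5 bases before the RefSeq start. Of the 19 genes with a word 10 rose in at least 1 comparison and PCNA fell, and of the 17 with a window and no word 3 rose and CCNE1 fell. For CCAAT the split ran the other way. Of the 21 genes with a CCAAT 5 rose in at least 1 comparison, and of the 15 without one 8 rose. Whether either split differs from that of other genes was not tested. The E2F1 window itself held 2 such words while E2F1 was near 0 change. Outside the list, 625 tested genes had an E2F word, of which 9.92% rose against Scrambled and 7.04% against Control, beside 10.3% and 8.2% of the 11854 without one. The median log2 change of the 625 genes was 0.02 against Scrambled and 0.01 against Control. In at least 1 comparison 67 of the 625 rose, and 1358 of the 11854 did.

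**Figure D5:**
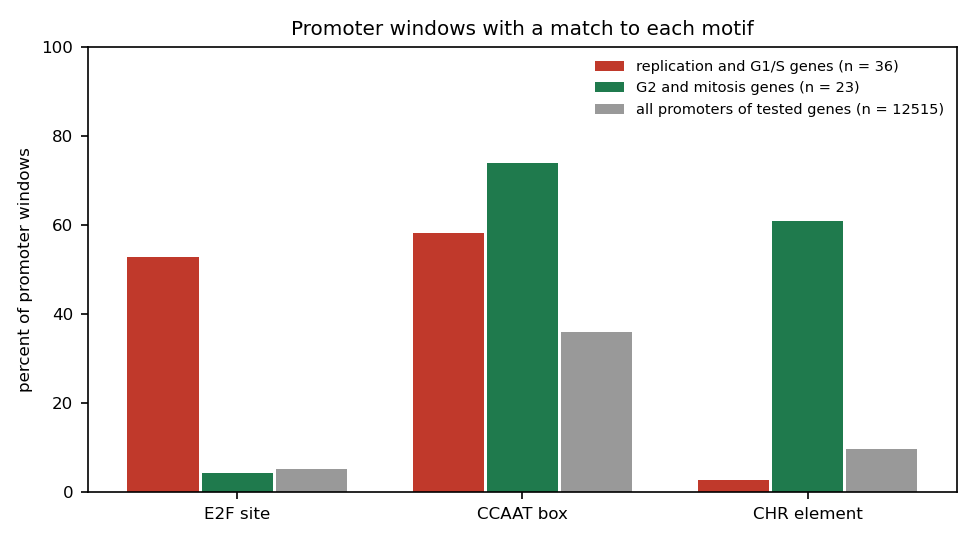
Percent of RefSeq promoter windows with at least 1 match, on either strand, to an E2F word, CCAAT or the CHR core TTTGAA, in the replication and G1/S genes (n = 36), the G2 and mitosis genes (n = 23) and all tested genes with a window (n = 12515). E2F words stand at 52.8%, 4.35% and 5.15% in that order, and the CHR core at 2.78%, 60.9% and 9.76%.

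The 3′ untranslated regions (UTRs) were searched for the heptamers ACACCAA and CACCAAA, which were chosen after earlier results of these libraries were seen and which are therefore no independent evidence. The longest annotated 3′ UTR of each gene in GENCODE 29 was used. A heptamer was found in 5 of the 42 genes (11.9%), CCNE1, PCNA, POLE, RRM1 and RRM2, and in 18.7% of 13963 tested genes. Both genes that fell hold 1, and 0 of the 16 genes that rose in either comparison do. Over all genes, 26.7% of those with a heptamer fell against Scrambled and 27.5% against Control, beside 7.05% and 6.54% of those without. Of all genes with a heptamer 5.24% rose against Scrambled and 4.67% against Control, so 0 rises among the 5 listed genes lies near that share. Over all genes those with a heptamer also had longer 3′ UTRs, with a median of 2975 bases beside 1092, while among the 42 genes the 5 with a heptamer had a median of 531 bases beside 980 in the others. The sites are shown with the matched letters in capitals, so that the site of the strongest fall can be read beside those of genes without a call. They lie at chr20:5115181-5115210 (minus strand) for PCNA, chr19:29823783-29823812 (plus) for CCNE1, chr12:132623940-132623969 (minus) for POLE, chr11:4138561-4138590 (plus) for RRM1 and chr2:10129820-10129849 (plus) for RRM2, on GRCh38.
PCNA: gtcttttctgtCACCAAAtttgtacctcta
CCNE1: ccatccttctcCACCAAAgacagttgcgcg
POLE: atttcacagggCACCAAAcaagtatgaaat
RRM1: attgggattttCACCAAAataatgcttttg
RRM2: atttggtttctACACCAAAtacattctcct

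The longest match stands in RRM2, which had 0.06 against Scrambled and -0.007 against Control, and the match of PCNA is the 7-letter word. The site begins at base 84 of 330 in PCNA and at base 17 of 531 in CCNE1. Among the 37 genes without a heptamer 40.5% rose and 0 fell against Scrambled, and 29.7% rose and 0 fell against Control, with medians of 0.14 and 0.10. Over all tested genes without a heptamer 12.7% and 9.92% rose.

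Reads of overlapping genes could be assigned differently with another strand setting, which the sources used here do not give. Exons of 19 of the 42 genes share bases with another gene. The share was largest for TYMS, with 39.9% of its exon bases under ENOSF1 on the opposite strand, and for CCNE2, with 37.1% under INTS8, whose counts were 390% of those of CCNE2. MCM2 shares 23.6% of its exon bases with an unnamed gene on the opposite strand that had 0.295% of its counts. Other overlaps lie on the same strand, where the strand setting makes no difference. FEN1 shares 2.23% of its exon bases with FADS2, whose counts were 154% of those of FEN1. POLD3 shares 2.24% with LIPT2-AS1, at 5.14% of its counts, and PRIM1 4.87% with NACA, at 669%. PCNA, RPA2, CDC6 and CCNE1 share none. Pseudogenes named after 8 of the genes held at most 152 counts over the 9 libraries, for RRM2P3, and PCNAP3 held 29.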

How the data were processed

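RNA-seq libraries of C28/I2 cells (3 each of CA2 shRNA, Scrambled and Control) were analysed from 1 table per library. The authors deposited whole-number read counts, CPM and RPKM for each gene, per the file headers. Recomputed from the deposited counts and lengths, the deposited CPM and RPKM came out the same. Per the submitters' processing notes, bcl2fastq, STAR 2.5.1a and featureCounts 1.4.6-p5 (Subread) were used on GRCh38. Not given in the sources used here were the annotation release, the strand setting and the treatment of multimapping reads.

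The 42 members, the other gene lists, the motifs and the tests were chosen with earlier results of these data known. Deposited counts were tested with edgeR 4.0.16 in R 4.3.3 (TMM factors 0.977 to 1.012, filterByExpr, robust quasi-likelihood F test, 1 model of all 9 libraries with 6 residual degrees of freedom), with Benjamini-Hochberg adjustment over 19812 genes and a threshold of 0.05. The standard error is the log2 change divided by the square root of F. Values are mean ± SD over 3 libraries. Single genes had no exact permutation test, since 3 against 3 reaches p = 0.1 at best. The script was tested on simulated counts. Named with all libraries were genes past the threshold in both CA2 shRNA comparisons, and at most 4 genes from each further list. Totals of 16994368 to 34261244 counts and a biological coefficient of variation of 7.94% set the precision. Libraries differed by more than sampling noise in each pair. The 18 alternatives covered scaling, filter, DESeq2 1.42.0, a replicate block, the groups fitted and libraries left out. CPM is TMM-scaled, while RPKM is as deposited.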

Additional observations from a re-analysis of the deposited data

How the results depend on the processing

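The direction of the 18 listed genes with a call held in all 18 alternatives, and PCNA, CDC6, MCM4, FEN1, RPA2 and DTL kept both calls in each of them. The other 6 genes called in both comparisons lost a call in at least 1. Leaving out 1 library at a time, or Control 3 and Scrambled 2 together, rises in the list ran from 7 to 16 against Scrambled, from 6 to 14 against Control and from 6 to 13 in both. Falls ran from 1 to 3 against Scrambled, from 2 to 3 against Control and from 1 to 3 in both. The low counts of rises were 7 without Scrambled 3 against Scrambled, and against Control 7 without Control 1, 6 without Control 2 and 6 without CA2 shRNA 2; in both they were 6 without Control 2 or CA2 shRNA 2. Without CA2 shRNA 3, PCNA was the 1 fall against Scrambled and in both. The 70 other pathway genes gave 11 to 30 rises and 3 to 7 falls against Scrambled, and 8 to 24 and 3 to 7 against Control. All genes gave 864 to 2407 rises and 1129 to 1882 falls against Scrambled, 663 to 2030 and 1063 to 2027 against Control, and 0 to 1 rises for Scrambled against Control. That last comparison gave 5 rises and 2 falls without a filter and 1 rise with DESeq2. Without both Control 3 and Scrambled 2, 2407 genes rose and 1882 fell against Scrambled. With only the groups compared in the fit, 4 listed genes fell against Control. The cause of these shifts was not tested. The list's median stayed between 0.06 and 0.14. Replicate numbers shared by the groups do not pair the libraries, since same-numbered libraries correlated at -0.185 to 0.105. With the replicate block 15 and 10 listed genes rose and 2 and 2 fell, and of 80 gene values 1 lost its call, LIG1 against Control. The 24 uncalled genes gave 864 values, of which 55 changed sign, all between -0.04 and 0.08, and 13 passed. Depth limits the precision for CA2, at 15 to 66 counts.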

Other observations

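Markers of the late cell cycle were called in both directions. MKI67, the proliferation antigen, averaged 1238 ± 80.5 CPM in CA2 shRNA, 1821 ± 163 CPM in Scrambled and 1703 ± 130 CPM in Control, and fell by 0.56 (adjusted p = 4.48e-05) and by 0.46 (adjusted p = 0.000301). CDC25C, the mitotic relative of CDC25A, averaged 17.3 ± 1.06 CPM in CA2 shRNA, 28.8 ± 0.74 CPM in Scrambled and 25.99 ± 2.28 CPM in Control, and fell by 0.74 and 0.59. The mitotic cyclin gene CCNB2 fell by 0.55 and 0.51. In contrast NEK2, a centrosome kinase gene, rose by 0.40 and 0.35, and CDC25B rose by 0.27 in both comparisons. The CDC25 phosphatase genes were thus called on both sides, with CDC25A and CDC25B up and CDC25C down. These genes of the G2 and mitosis list were singled out after their values were seen, and whether their changes differ from those of the replication genes was not tested.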
